A study of Mus musculus with 21 samples.

Results

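Epididymal fat of mice given the RMG supplement on a high-fat diet was compared with that of mice given the high-fat diet alone, over 16248 genes. The comparison used 6 of the study's 21 arrays, the 3 whose titles carry RMG and the 3 whose titles carry HFD, and took every gene with a probe of a single symbol. All mice were male C57BL/6J, 4 weeks old on arrival, housed singly, and fed their diets for 12 weeks after 1 week of acclimation. HFD mice ate a diet with 40% of its energy from fat, and RMG mice are labelled with the same diet. RMG is a code: neither the supplement nor its dose is described in the protocols, which name 6 groups and leave out RMG. The other groups were ND (normal diet, with fat giving 10% of the energy), BC (high-fat diet with 0.3% Bacillus coagulans by weight), SMG (with 0.3% steamed grain), L_FMG (with 0.3% fermented mixed grain) and H_FMG (with 0.9%). Each had 3 arrays. The protocols state 10 mice for ND, HFD, BC and SMG, without saying how those on the arrays were picked. Arrays are called by their group and title number, read here as the number of the mouse. The labels do not say that each array came from 1 mouse, so p-values measure the spread between these arrays.

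White fat stores triglyceride and releases hormones such as leptin and adiponectin. When it expands on a fatty diet, fat cells enlarge, macrophages gather around dying fat cells and take up their lipid, fibroblasts deposit collagen, and the genes of lipid synthesis and insulin response are turned down in the fat cells. The comparison asks whether RMG changed those features on the same diet.

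The tissue label was checked against fat cell genes. Adiponectin (Adipoq) lay between 8.81 and 9.37 and leptin (Lep) between 11.40 and 11.61 in the 6 arrays, on the log2 scale on which all levels are given here. A difference of 1 on this scale is a doubling. The median over all probes ran from 4.23 to 4.39 across the 21 arrays, and 0 pairs of arrays were identical. The tissue was measured whole, so fewer cells of a type and less RNA per cell cannot be told apart. ND array 9 stood apart from ND arrays 6 and 8, toward the HFD mean in some lists and away from it in others. Relative to that mean, its macrophage markers were at -0.66 against -1.19 and -1.24, and its small nucleolar RNAs at 1.07 against 0.06 and 0.22. RMG array 9 stood apart from RMG arrays 4 and 10 in genes of sperm, as described with those genes.

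No gene passed the test between RMG and HFD. With limma's moderated test and Benjamini-Hochberg adjustment over 16248 genes, 0 were higher and 0 lower at the threshold of 0.05 (0% of genes). At an unadjusted p under 0.05 there were 458 genes (2.82%), of which 266 were higher (1.64%) and 192 lower (1.18%) in RMG. The smallest adjusted p was 0.338, for Lin28a, and the next was 0.9998, which was also the adjusted p of every other gene named below for this comparison. Differences were small: their median was 0.01, their standard deviation over genes 0.152, 112 genes differed by more than 0.5, and only Gpx5 differed by more than 1. The 95% interval of the difference lay within 1 log2 unit of 0 for 16037 genes (98.7%) and within 0.5 for 11837 (72.9%). These intervals bound the size of a difference, gene by gene, and do not show that the diets acted alike. Weighting the arrays by how well each fitted its group called 2 genes, Lin28a and Troap (adjusted p 0.0121 and 0.0324 by limma). The plot of all genes shows the spread of differences and the genes at its edges.

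**Figure D1:**
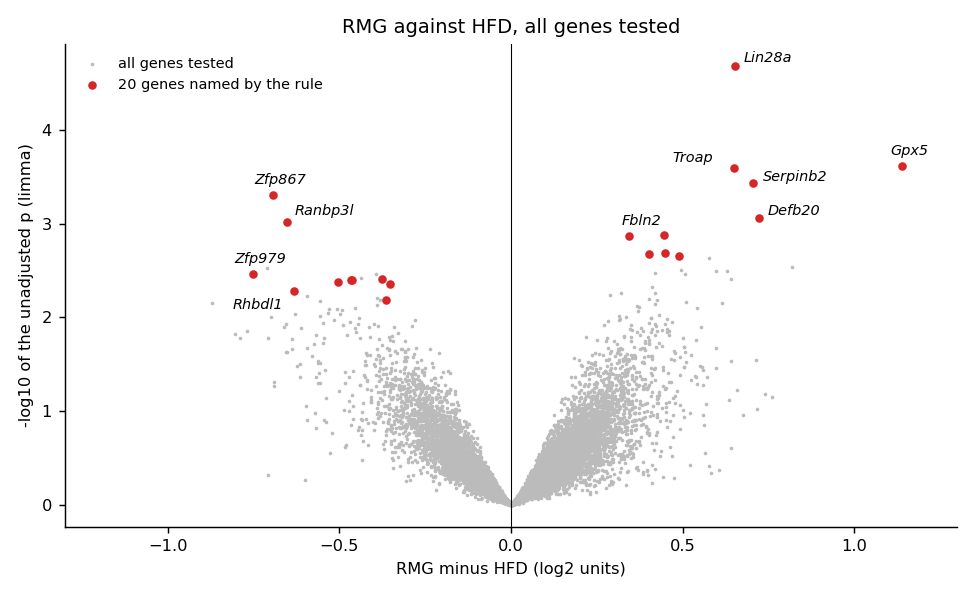
Each point is 1 of 16248 genes, with the RMG minus HFD difference in log2 units on the x axis and -log10 of the unadjusted limma p on the y axis; the 20 genes named by rule are in red. Most points lie within 0.5 of 0, only Gpx5 lies beyond 1, and Lin28a has the smallest p.

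As a measure that needs no model, the 3 RMG arrays were all above the 3 HFD arrays for 1032 genes (6.35%) and all below them for 755 (4.65%). These shares are the background for the counts of gene groups below. The naming rule took the 10 genes with the smallest p in each direction among those without overlap, leaving out predicted gene models, so their separation is a consequence of the rule.

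Lin28a, an RNA-binding protein that blocks the maturation of let-7 microRNAs, was at 3.67, 3.70 and 3.66 in HFD arrays 4, 6 and 7 and at 4.36, 4.40 and 4.22 in RMG arrays 4, 9 and 10. Values of single genes are listed in this order of arrays throughout. The groups did not overlap, and the difference was 0.65 ± 0.12 (95% interval 0.40 to 0.90). Errors of differences are standard errors of the limma fit, here and below, with 3 arrays in each group. Its adjusted p by limma was 0.338, from an unadjusted 2.08e-05. The 3 HFD arrays were the low ones: the lowest array of any other group was ND array 9 at 3.90, and the group means were 4.07 in ND, 4.17 in BC, 4.07 in SMG, 4.06 in L_FMG and 4.18 in H_FMG. HFD was accordingly lower than ND by a difference of -0.39 ± 0.12 (adjusted p = 0.0427 by limma), a comparison that shares the HFD arrays. RMG minus ND was 0.26 ± 0.12 (adjusted p = 0.154 by limma).

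Gpx5, a glutathione peroxidase of the epididymis, had the largest difference. It was at 2.23, 2.15 and 1.89 in HFD and at 2.97, 3.72 and 2.98 in RMG, a difference of 1.14 ± 0.26 (95% interval 0.60 to 1.67). RMG array 9 was the highest, and all RMG arrays were above all HFD arrays. Defb20, a beta-defensin, was at 2.77, 2.57 and 2.44 in HFD and 3.16, 3.45 and 3.33 in RMG, a difference of 0.72 ± 0.18. Here too HFD was the low group, since the ND mean was 3.35 and HFD was lower than ND by a difference of -0.76 (adjusted p = 0.0144 by limma).

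Troap, a protein of the mitotic spindle, was at 4.83, 5.19 and 4.89 in HFD and at 5.66, 5.54 and 5.66 in RMG. The difference was 0.65 ± 0.15 (95% interval 0.34 to 0.96). It was also above ND in RMG, by 0.55 (adjusted p = 0.0145 by limma). Serpinb2, an inhibitor of plasminogen activators made by macrophages among other cells, was at 3.08, 2.84 and 2.71 in HFD and at 3.67, 3.52 and 3.54 in RMG, a difference of 0.70 ± 0.16. Its RMG arrays were above every array of the other 6 groups in the plot of genes by group.

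Fbln2, a fibulin that binds basement membranes and elastic fibres, was at 8.34, 8.29 and 8.26 in HFD and at 8.62, 8.67 and 8.62 in RMG. The groups were tight and separate, with a difference of 0.34 ± 0.09 (95% interval 0.15 to 0.53). The remaining genes on this side were Cnih3, an auxiliary subunit of AMPA receptors, at 0.49, Pom121l12 at 0.45, the zinc-finger gene Zfp992 at 0.44 and the ribosomal oxygenase Riox1 at 0.40. Of the 10 genes, 6 had a mean over the 21 arrays under the median gene's mean of 4.72, so they were left out where dim genes were not tested. Members of the defensin, serpin and zinc-finger families have close copies elsewhere in the genome, and their probes may share signal.

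On the other side, Zfp867, a zinc-finger gene, was at 3.60, 3.35 and 3.26 in HFD and at 2.99, 2.60 and 2.54 in RMG. All RMG arrays were lower, with a difference of -0.69 ± 0.17 (95% interval -1.04 to -0.35). Ranbp3l, a Ran-binding protein, was at 5.59, 5.26 and 5.76 in HFD and at 4.59, 4.81 and 5.25 in RMG, a difference of -0.65 ± 0.17. RMG array 10 came within 0.02 of HFD array 6. Both genes were lower in RMG than in ND as well, by differences of -0.54 and -0.67 (adjusted p = 0.0327 and 0.00956 by limma).

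Zfp979 had a difference of -0.75 ± 0.23, but its other probes differed by 0.03 and -0.11, so the gene's direction rests on the brightest probe. Rhbdl1, a rhomboid-family protease, was at 6.12, 5.53 and 5.97 in HFD and at 5.16, 5.35 and 5.22 in RMG, a difference of -0.63 ± 0.20. Its ND mean was 6.48, and RMG was lower than ND by a difference of -1.23 (adjusted p = 0.000454 by limma). The other genes on this side were the calcium-binding protein S100a5 at -0.50, the cytochromes P450 Cyp4f16 at -0.47 and Cyp3a11 at -0.46, Zfp169 at -0.38, Ttpa, the carrier of vitamin E, at -0.36, and Bsdc1 at -0.35. Of these 10 genes, 5 had a mean under 4.72. All 20 genes kept their sign under every alternative tried. Leaving out single arrays could not have changed it, because the rule required groups without overlap.

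**Figure D2:**
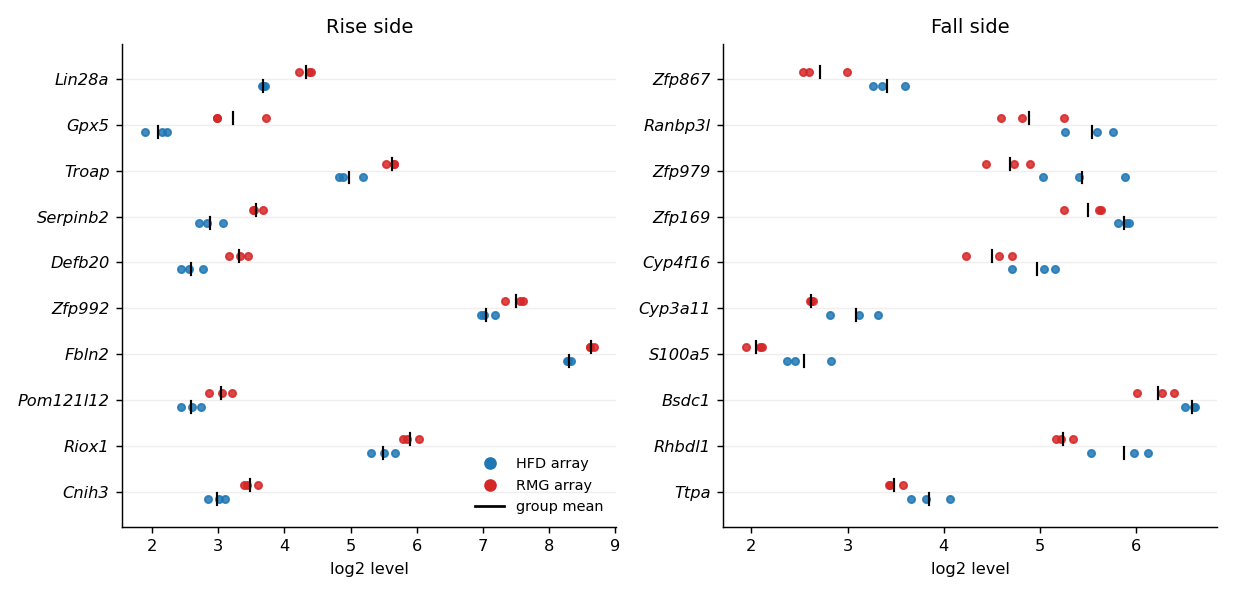
Log2 level of the 10 genes with the smallest p on each side (RMG above HFD on the left, RMG below HFD on the right), 1 point per array (HFD blue, RMG red) and a bar at each group mean. The groups do not overlap for any of the 20 genes because the rule required it, and Gpx5 has the widest gap between means.

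Genes of the fibrous matrix leaned higher in RMG, though none passed the test. Collagens form the scaffold around fat cells, and 10 of 17 measured chains (58.8%, against 6.35% of all genes) had all RMG arrays above all HFD arrays, with 0 below. The median difference of the 17 was 0.17, against 0.01 over all genes, 15 differences were positive, and 0 chains passed the test. The mean of the chains, relative to the HFD mean, was 0.04, -0.01 and -0.03 in HFD arrays 4, 6 and 7 and 0.22, 0.15 and 0.25 in RMG arrays 4, 9 and 10. These means did not overlap. After quantile normalization 8 chains stood above, and without each array in turn the median lay between 0.15 and 0.22. The collagen mean was 0.21, 0.15 and 0.06 in SMG arrays 5, 8 and 12, likewise all above the highest HFD array. BC and L_FMG had arrays on both sides of the HFD arrays, and H_FMG arrays 3, 6 and 8 were at -0.05, -0.08 and -0.20.

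Col8a1, a short-chain collagen of vessel walls and remodelling tissue, was at 6.02, 6.02 and 6.08 in HFD and at 6.61, 6.68 and 6.56 in RMG. The difference was 0.58 ± 0.17 (95% interval 0.23 to 0.92), with no overlap. Col5a2, which regulates the width of collagen fibrils, differed by 0.34 ± 0.12, and Col6a3, a chain of the microfibrils that wrap fat cells, by 0.32 ± 0.11. Col1a1, the main fibrillar chain, was at 9.55, 9.73 and 9.32 in HFD and at 10.03, 9.87 and 9.91 in RMG, a difference of 0.41 ± 0.17. All 4 chains were higher in RMG than in ND, by 0.84, 0.64, 0.51 and 1.07 in that order (adjusted p between 0.000396 and 0.00406 by limma).

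Matrix glycoproteins and crosslinking enzymes organise those fibres, and 11 of 26 measured genes (42.3%) had RMG arrays above HFD arrays, with 1 below. The median difference was 0.20 and 0 passed. Array means were -0.01, -0.02 and 0.03 in HFD and 0.18, 0.15 and 0.16 in RMG, without overlap. Periostin (Postn), a matricellular protein of healing and fibrotic tissue, was at 9.41, 9.63 and 9.31 in HFD and at 9.93, 9.65 and 9.82 in RMG, a difference of 0.35 ± 0.13. HFD array 6 nearly reached RMG array 9. Emilin1, an elastic fibre glycoprotein, differed by 0.38 ± 0.14 with overlapping arrays.

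Matrix proteases and their inhibitors had 5 of 14 genes above (35.7%) and 0 below, with a median of 0.09 and overlapping array means. Plau, the urokinase that activates plasminogen, was at 8.61, 9.20 and 8.73 in HFD and at 9.33, 9.32 and 9.27 in RMG, a difference of 0.46 ± 0.17. The RMG arrays were close together and HFD array 6 was just below them. The membrane collagenase Mmp14 differed by 0.34 ± 0.16 and Adamts12 by 0.20 ± 0.09. The markers of fibroblasts and fat cell progenitors did not move with the matrix: 1 of 18 was above and 0 below, the median was 0.02, and array means ran from -0.02 to 0.03 in HFD and from -0.03 to 0.02 in RMG. Among them, Cd34 differed by 0.16, Cd248 by 0.25 and Gsn by -0.20.

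**Figure D3:**
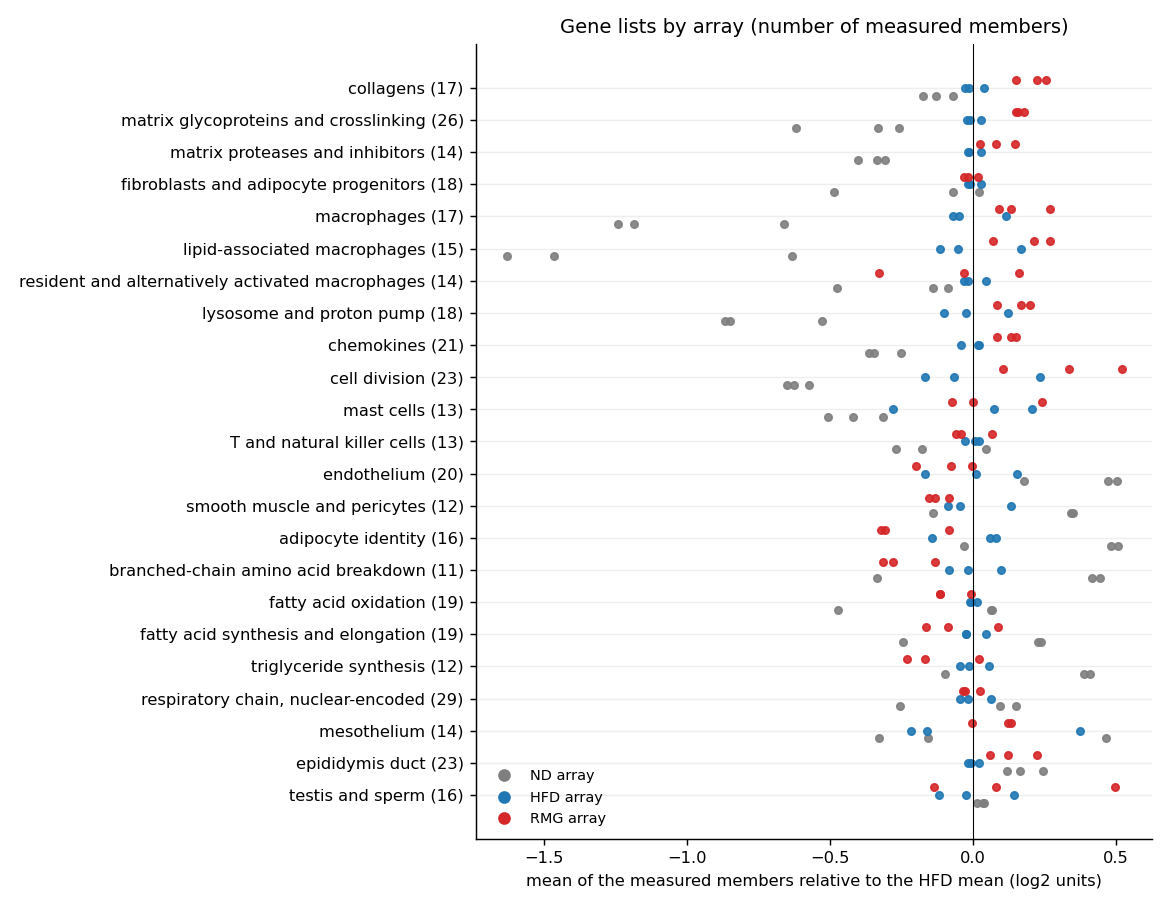
Mean log2 level of the measured members of each gene list, relative to the HFD mean, with 1 point per array (ND grey, HFD blue, RMG red) and the number of members in brackets. RMG arrays lie to the right of HFD arrays for collagens, matrix glycoproteins, chemokines and epididymis duct, to the left for branched-chain amino acid breakdown, and overlap them for the other lists shown.

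Breakdown of branched-chain amino acids takes place in fat cell mitochondria and feeds lipid synthesis. All 11 measured genes of it had negative differences, 7 (63.6%, against 4.65% of all genes) had RMG arrays below HFD arrays, and 0 above, although 0 passed. The median difference was -0.22. Array means were -0.02, -0.08 and 0.10 in HFD and -0.32, -0.28 and -0.13 in RMG, without overlap, and without each array in turn the median lay between -0.29 and -0.16.

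Hibch, which releases hydroxyisobutyrate in the breakdown of valine, was at 7.11, 6.95 and 7.16 in HFD and at 6.63, 6.43 and 6.92 in RMG, a difference of -0.42 ± 0.15 (95% interval -0.73 to -0.10). RMG array 10 came close to HFD array 6. Aldh6a1, a later dehydrogenase of the valine pathway, was at 9.14, 8.999 and 9.29 in HFD and at 8.52, 8.80 and 8.79 in RMG, a difference of -0.44 ± 0.21, and its second probe differed by -0.57. Oxct1, an enzyme of ketone body use on the same list, differed by -0.16 ± 0.10.

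Fat cell identity genes leaned the same way without separating. Of 16 measured, 15 had negative differences, 5 (31.2%) had RMG arrays below, 0 above, and 0 passed, with a median of -0.25. Array means were 0.06, -0.14 and 0.08 in HFD and -0.32, -0.31 and -0.08 in RMG. RMG array 10 lay among the HFD arrays. Pck1, the rate-limiting enzyme of glyceroneogenesis, was at 9.94, 9.35 and 9.87 in HFD and at 8.89, 9.04 and 9.39 in RMG, a difference of -0.61 ± 0.28 (95% interval -1.21 to -0.02). HFD array 6 and RMG array 10 overlapped. Pparg, the receptor that drives fat cell differentiation, differed by -0.24 ± 0.12 and the retinol carrier Rbp4 by -0.31 ± 0.16, both without overlap.

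Adipoq was at 9.33, 9.10 and 9.37 in HFD and at 8.90, 8.81 and 9.13 in RMG, a difference of -0.32 ± 0.17. Lep was at 11.48, 11.46 and 11.61 against 11.40, 11.45 and 11.52, a difference of -0.06 ± 0.18 (95% interval -0.44 to 0.32). Over the 11 measured adipokines, 1 was above, 2 were below, and the median was -0.11. Sfrp5, a secreted Wnt inhibitor of fat cells, differed by -0.37 ± 0.19 with overlap.

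Genes of lipid handling had small negative medians and overlapping array means. For lipolysis and the lipid droplet the median was -0.13, with 1 above and 1 below of 12, and Pnpla3, a lipid droplet acyl hydrolase, was at 8.25, 8.18 and 8.20 in HFD and at 7.87, 7.55 and 8.08 in RMG, a difference of -0.38 ± 0.18. Triglyceride synthesis had a median of -0.11 with 0 of 12 genes separated in either direction, and Dgat1, which makes the final bond of triglyceride, differed by -0.23 ± 0.14. Fatty acid synthesis and elongation had 4 of 19 below (21.1%), 1 above and a median of -0.13. In that list Hacd1, a dehydratase of fatty acid elongation, was at 6.08, 6.09 and 6.15 in HFD and at 5.79, 5.85 and 5.85 in RMG, a difference of -0.28 ± 0.11.

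Fatty acid oxidation had 5 of 19 below (26.3%), 1 above and a median of -0.11, and quantile normalization raised the number below to 8. Its regulator Ppara differed by -0.33 ± 0.19 and the peroxisomal enzyme Ehhadh by -0.32 ± 0.20, both with overlap. The nuclear-encoded respiratory chain stood at a median of -0.02, with 2 of 29 above and 2 below. Thermogenic genes stood at 0.02 with 0 of 9 separated, and Prdm16, a regulator of brown and beige fat, differed by -0.09 ± 0.14. Only 9 of the 17 genes on the thermogenic list were measured, and 6 of them had a mean under the median gene's. Insulin signalling and glucose transport had a median of -0.09 with 1 of 14 above and 2 below (4 below after quantile normalization). The insulin-responsive glucose transporter Slc2a4 was at 6.89, 6.07 and 6.79 in HFD and at 5.97, 6.12 and 6.64 in RMG, a difference of -0.34 ± 0.21 with overlap. Cholesterol synthesis and uptake leaned up, with 1 of 13 above, 0 below and a median of 0.09, and its regulator Srebf2 differed by 0.21 ± 0.13.

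Macrophage genes, the list with the largest median in HFD against ND, leaned a little higher still in RMG without separating. Of 17 general macrophage markers, 16 had positive differences, 3 (17.6%) had RMG arrays above, 0 below, and 0 passed, with a median of 0.15. Array means were -0.05, 0.12 and -0.07 in HFD and 0.27, 0.13 and 0.09 in RMG, so HFD array 6 lay among the RMG arrays. Csf1r, the receptor for macrophage growth factor, was at 9.30, 9.45 and 9.20 in HFD and at 9.63, 9.58 and 9.48 in RMG, a difference of 0.25 ± 0.19. C1qa, a complement subunit made by macrophages, differed by 0.29 ± 0.22 and Cd14, the co-receptor for endotoxin, by 0.33 ± 0.27.

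Markers of lipid-associated macrophages, the cells that take up lipid from dying fat cells, had 2 of 15 above (13.3%), 0 below and a median of 0.16. Trem2, their lipid receptor, was at 8.86, 9.18 and 8.54 in HFD and at 9.26, 9.35 and 9.06 in RMG, a difference of 0.37 ± 0.42 (95% interval -0.51 to 1.25). Its ND mean was 6.78, far below both groups. Tm4sf19, a membrane protein of these cells, differed by 0.47 ± 0.44 and Cd63, a tetraspanin of lysosomes, by 0.33 ± 0.18.

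Resident and alternatively activated macrophage genes were divided: 3 of 14 were above (21.4%), 0 below, and the median was -0.03. Retnla, a secreted marker of alternative activation, was at 9.56, 8.45 and 9.31 in HFD and at 8.62, 7.93 and 8.40 in RMG, a difference of -0.79 ± 0.30 (95% interval -1.42 to -0.16). HFD array 6 was low in its group and overlapped. The lectin Mgl2 differed by -0.62 ± 0.27, while the chemokine Pf4 was at 6.45, 6.62 and 6.67 against 6.87, 6.87 and 6.96, a difference of 0.32 ± 0.14.

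Lysosomal enzymes and proton pump subunits had 5 of 18 above (27.8%), 0 below and a median of 0.16, but only 1 above after quantile normalization. The cathepsin Ctsl was at 10.43, 10.64 and 10.41 in HFD and at 10.77, 10.76 and 10.69 in RMG, a difference of 0.25 ± 0.13. Npc1, which exports cholesterol from lysosomes, differed by 0.26 ± 0.15, while its dimmer second probe differed by -0.10.

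Chemokines had 4 of 21 above (19%), 1 below and a median of 0.12, and their array means did not overlap, at -0.04, 0.02 and 0.02 in HFD and 0.15, 0.08 and 0.13 in RMG. Ccl12, a monocyte chemokine, differed by 0.35 ± 0.16 and Ccl2, the main monocyte attractant of fat, by 0.36 ± 0.25. Cytokines had 2 of 18 above, 0 below and a median of 0.09. Il1rn, the secreted antagonist of interleukin-1, was at 5.46, 6.14 and 5.31 in HFD and at 6.22, 6.46 and 5.94 in RMG, a difference of 0.57 ± 0.27 with overlap through HFD array 6. Tnf, the founding inflammatory cytokine of obese fat, differed by 0.31 ± 0.21, and Il6 by 0.08 ± 0.13.

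Endotoxin and Toll-like receptor genes had 3 of 11 above (27.3%) and 0 below with a median of 0.02. Complement components had 1 of 14 above and 0 below, and a median of 0.09. Interferon-induced genes had 0 of 27 above, 1 below and a median of -0.05, and within them Oasl1, an oligoadenylate synthase-like gene, differed by 0.29 ± 0.14 and the GTPase Iigp1 by -0.60 ± 0.33. Class II genes of antigen presentation had 0 of 9 separated, and a median of -0.004. T and natural killer cell markers had 0 of 13 above, 1 below and a median of 0.01. B and plasma cell markers had 1 of 13 above, 0 below and a median of -0.07, and the 1 above was Cd79b, a subunit of the B cell receptor, with a difference of 0.33 ± 0.14. For mast cells the counts were 0 above and 1 below of 13, and for neutrophils and monocytes 0 of 13. Many of these markers were dim. A mean under the median gene's was found for 10 of 13 T and natural killer and 9 of 13 B and plasma cell markers. The same held for 8 of 13 mast cell markers, 9 of 13 neutrophil and monocyte markers and 12 of 18 cytokines.

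Cell division genes were positive in 23 of 23, with a median of 0.30, the highest of the 50 lists, 5 above (21.7%), 0 below and 0 passing. Array means were -0.17, 0.24 and -0.07 in HFD and 0.34, 0.11 and 0.52 in RMG. RMG array 9 was below HFD array 6, so the groups overlapped. Rrm2, a subunit of the enzyme that makes deoxynucleotides, was at 4.46, 4.71 and 4.49 in HFD and at 4.96, 5.15 and 5.06 in RMG, a difference of 0.50 ± 0.20. Birc5, a passenger protein of dividing chromosomes, differed by 0.54 ± 0.25 and the mitotic kinase Aurka by 0.32 ± 0.15. Macrophage markers were at 0.27, 0.13 and 0.09 in the same RMG arrays, with the highest HFD array at 0.12. RMG array 10, the highest for cell division, was thus the lowest RMG array for macrophage markers. Their part in the cell division values was not tested.

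Vessel genes leaned down. Of 20 endothelial markers 17 had negative differences, 3 (15%) had RMG arrays below, 1 above, and the median was -0.09. Array means were 0.01, -0.17 and 0.15 in HFD and -0.08, -0.20 and -0.003 in RMG, with overlap. Nos3, the endothelial nitric oxide synthase, was at 6.12, 6.15 and 6.31 in HFD and at 5.85, 5.90 and 6.08 in RMG, a difference of -0.25 ± 0.12. The receptors for vascular growth factor Flt1 and Kdr each differed by -0.31, with an SE of 0.16 and 0.19. Vegfa, their ligand, was at 8.45, 7.997 and 8.20 in HFD and at 7.75, 7.70 and 7.99 in RMG, a difference of -0.40 ± 0.17 (95% interval -0.76 to -0.04). Smooth muscle and pericyte markers had a median of -0.17 with 1 of 12 below and 0 above, and Des, an intermediate filament protein of muscle, differed by -0.28 ± 0.13. The markers of fat expansion had a median of -0.10, with 1 of 14 above and 2 below.

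The pad lies against the epididymis, and genes of that duct and of sperm were measured as markers of adjoining tissue. Of 23 epididymis duct genes, 4 (17.4%) had RMG arrays above, 0 below, and the median was 0.10. Array means were -0.01, 0.02 and -0.02 in HFD, 0.06, 0.22 and 0.12 in RMG, and 0.17, 0.25 and 0.12 in ND. All RMG arrays were above all HFD arrays, and RMG array 4 was below the lowest ND array. All but 1 of these genes had a mean under the median gene's. Lcn8, an epididymal lipocalin, was at 3.41, 3.51 and 3.56 in HFD and at 3.63, 4.54 and 4.10 in RMG, a difference of 0.60 ± 0.24.

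Among the 6 RMG and HFD arrays, sperm genes were high in RMG array 9 alone. Smcp, of the sperm mitochondrial sheath, was at 2.37, 2.52 and 2.93 in HFD and at 2.49, 4.47 and 2.76 in RMG. Prm1, the protamine that packs sperm DNA, was at 3.95, 4.30 and 4.38 in HFD and at 4.08, 5.45 and 4.32 in RMG. The list's mean was 0.50 in RMG array 9, against -0.14 and 0.08 in RMG arrays 4 and 10 and -0.12 to 0.14 in HFD. BC array 11 was at 0.33. RMG array 9 was also the highest for Gpx5, at 3.72. RMG arrays 4 and 10, where sperm genes were not high, had Gpx5 at 2.97 and 2.98, above the highest HFD array at 2.23. The part of sperm-bearing tissue in the Gpx5 difference was not tested. Mesothelial markers, from the pad's covering, had 0 of 14 separated and a median of 0.05, with HFD array 4 at 0.37 and the other HFD arrays at -0.21 and -0.16.

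The panel of 22 obesity markers gathers genes commonly followed in fat. In RMG against HFD 3 were above (Col1a1, Col6a3 and Cpt1a, the entry enzyme of fatty acid oxidation), 4 were below (Pparg, Scd1, Acaca and Mest), and 0 passed. Scd1, a fatty acid desaturase, was at 12.06, 11.88 and 12.11 in HFD and at 11.84, 11.76 and 11.88 in RMG, a difference of -0.19 ± 0.12. RMG array 10 and HFD array 6 were separated by less than 0.01. Acaca, the first enzyme of fatty acid synthesis, differed by -0.14 ± 0.21 and Fasn, the synthase itself, by -0.10 ± 0.13. Mest, a marker of fat cell growth, was at 10.83, 10.74 and 10.94 against 10.55, 10.57 and 10.61, a difference of -0.26 ± 0.16. Adgre1, the macrophage surface marker F4/80, differed by 0.25 ± 0.31. Ppargc1a, Srebf1, Irs1 and Npr3 differed by -0.09, -0.17, -0.24 and -0.20, all with overlap.

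**Figure D4:**
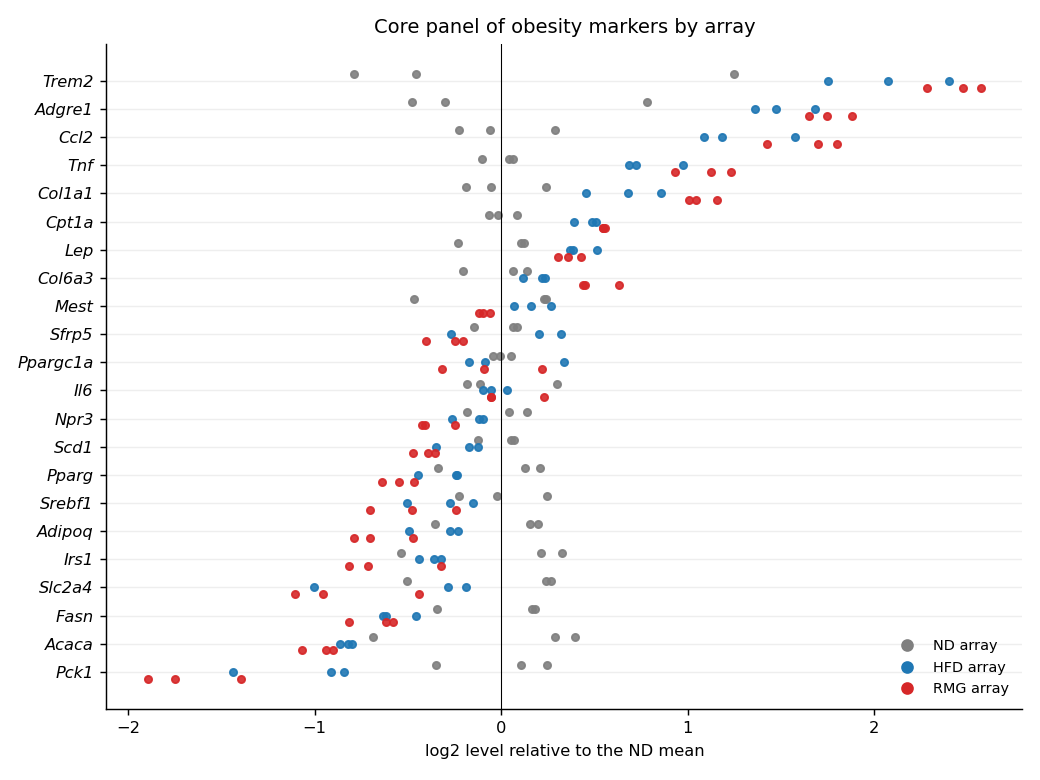
Log2 level of the 22 measured obesity markers relative to the ND mean, 1 point per array (ND grey, HFD blue, RMG red), ordered by the HFD minus ND difference. HFD and RMG arrays lie on the same side of ND for the genes at the top (Trem2, Adgre1) and the bottom (Acaca, Pck1), and Pck1 lies farthest below ND in RMG arrays 4 and 9.

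The level of RMG relative to the normal diet was taken next. Against ND, 1665 genes were higher in RMG (10.2%) and 736 lower (4.53%) at the threshold of 0.05, by limma. HFD against ND, which shares the ND arrays, gave 1063 higher (6.54%) and 340 lower (2.09%), 1403 in all (8.63%). The difference between those pairs of counts was not tested, since its test is RMG against HFD, which called 0 genes. With quantile normalization RMG against ND gave 1259 higher and 1140 lower. The number lower was 385 without RMG array 4 and 455 without RMG array 10.

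Side by side, the medians over gene groups for RMG minus ND and HFD minus ND were 1.24 and 1.05 for macrophages, 1.13 and 0.97 for lipid-associated macrophages, 0.90 and 0.69 for lysosomal genes and 0.94 and 0.71 for cell division. They were 0.26 and 0.19 for collagens and 0.52 and 0.35 for matrix glycoproteins. On the negative side they were -0.58 and -0.31 for fat cell identity, -0.47 and -0.24 for branched-chain amino acid breakdown and -0.45 and -0.36 for endothelium. The branched-chain mean was 0.45, 0.42 and -0.34 in ND arrays 6, 8 and 9, so ND array 9 lay below all RMG and HFD arrays. Of its 11 genes, 2 passed as lower in RMG against ND and 0 in HFD against ND. Over all genes, 10.2% were higher and 4.53% lower in RMG against ND. Past the threshold were 15 of 17 macrophage, 16 of 18 lysosomal, 20 of 23 cell division and 13 of 26 matrix glycoprotein genes, all higher. Past it on the lower side were 10 of 16 fat cell and 12 of 20 endothelial genes, with 0 higher. Of 17 collagens, 7 were higher and 1 lower. In HFD against ND (6.54% of all genes higher, 2.09% lower) the same lists without collagens had 14, 14, 9 and 9 genes higher and 4 and 4 lower. Collagens had 2 higher and 1 lower.

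Pck1 gives the scale of this. RMG was lower than ND by a difference of -1.68 ± 0.28 (adjusted p = 0.000563 by limma) and HFD by -1.07 ± 0.28 (adjusted p = 0.0238 by limma). For Trem2 the differences were 2.44 (adjusted p = 0.000643 by limma) and 2.08 (adjusted p = 0.00564 by limma). The acute-phase gene Orm3 was lower by differences of -2.35 and -1.83.

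Each array's position between the high-fat and the normal diet was computed over all genes along an axis that used neither HFD nor RMG arrays, from the mean of BC, SMG, L_FMG and H_FMG to the ND mean. On it 0 is the HFD mean, and 1 a move toward ND as large as the axis. HFD arrays 4, 6 and 7 were at 0.12, -0.14 and 0.02, and RMG arrays 4, 9 and 10 at -0.17, -0.01 and -0.29. The RMG mean of -0.16 lay on the side away from ND, and RMG array 9 lay within the HFD range. These positions are a description and carry no test.

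Whether RMG differed from other supplements was tested between group means that leave out the HFD arrays. Those arrays still entered the fit's shared estimate of the spread. Against SMG, the steamed grain group, 0 genes were higher and 0 lower (0% of genes) by limma, with 574 at an unadjusted p under 0.05 (3.53%), of which 272 were higher (1.67%) and 302 lower (1.86%). Against the mean of BC, SMG, L_FMG and H_FMG, 304 genes were higher in RMG (1.87%) and 141 lower (0.868%) by limma, 445 in all (2.74%). With quantile normalization these became 253 and 304, so the balance between higher and lower depended on the scaling.

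The count rested on all 3 RMG arrays. Without RMG array 4 there were 0 higher and 0 lower, without RMG array 9 there were 1 and 1, and without RMG array 10 there were 9 and 17. Taking L_FMG or H_FMG out of the mean left 2 higher and 0 lower in either case, and taking out SMG gave 759 and 333. Among single arrays of the other groups, leaving out BC 4, BC 11, L_FMG 4, L_FMG 10, H_FMG 6 or H_FMG 8 lowered the number higher to between 67 and 202, and leaving out SMG 5 or H_FMG 3 raised it to 645 and 564. Those omissions of groups and of their arrays were chosen after seeing the data.

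Of the 445 genes called (2.74% of all genes), 78 were among the 772 genes on any of the 50 lists or named by rule. Of these, 53 were higher and 25 lower. The naming rule took some of them by their p in this same comparison. The other 367 were neither listed nor named. Higher in RMG (1.87% of all genes) were 6 of 17 macrophage, 6 of 18 lysosomal, 6 of 17 collagen, 9 of 26 matrix glycoprotein and 4 of 23 cell division genes. None of these lists had a member that was lower. Lower in RMG (0.868% of all genes) were 7 of 20 endothelial and 3 of 16 fat cell genes, with 0 higher. The median differences were 0.66 for macrophages, 0.41 for lysosomal genes, 0.14 for collagens, 0.35 for matrix glycoproteins, 0.58 for cell division, -0.36 for endothelium and -0.42 for fat cell identity, against -0.003 over all genes. In RMG minus SMG the medians were smaller, in the same order 0.34, 0.24, 0.04, 0.15, 0.23, -0.20 and -0.30, and no member passed. SMG array 12 stood apart in some of these lists. Relative to the HFD mean, SMG arrays 5, 8 and 12 were at 0.16, 0.03 and -0.61 for macrophages. They were at 0.12, 0.004 and -0.48 for lysosomal genes, 0.52, 0.12 and -0.43 for cell division and -0.06, -0.03 and 0.36 for endothelium. For matrix glycoproteins they were close together, at 0.07, -0.0005 and -0.003.

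By the smallest p, the genes higher in RMG were Mcoln2, Serpinb2, Pf4, Foxm1 and Qpct. Mcoln2, a cation channel of endosomes and lysosomes, had a mean of 6.03 ± 0.09 (SD, 3 arrays) in RMG and 5.48 over the other 4 groups, a difference of 0.55 ± 0.08 (SE; adjusted p = 0.0105 by limma). Its HFD mean was 5.82 ± 0.03 and its ND mean 5.19 ± 0.01. Serpinb2 differed by 0.87 ± 0.13 (adjusted p = 0.012 by limma), with means of 3.58 in RMG, 2.88 in HFD and 2.72 in ND. Qpct, which cyclises the ends of chemokines and other peptides, differed by 1.00 ± 0.18, Pf4 by 0.66 ± 0.11 and Foxm1, a transcription factor of mitosis, by 0.58 ± 0.10 (adjusted p = 0.024 by limma for each).

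The genes lower in RMG were Vegfa, Il15ra, Shank3, Prex2 and Pck1, each with an adjusted p of 0.024 by limma. Vegfa had a mean of 7.81 ± 0.16 in RMG, 8.36 ± 0.10 in BC, 8.29 ± 0.39 in SMG, 8.86 ± 0.24 in L_FMG and 9.10 ± 0.32 in H_FMG, and differed from their mean by -0.84 ± 0.14. HFD lay between, at 8.21 ± 0.22. Pck1 had a mean of 9.11 ± 0.26 in RMG and 10.32 over the other 4 groups, a difference of -1.21 ± 0.22. Il15ra, a subunit of the interleukin-15 receptor, differed by -0.65 ± 0.11, Prex2, an activator of the GTPase Rac, by -0.67 ± 0.12 and the scaffold protein Shank3 by -0.57 ± 0.10. All 10 genes lost their call without RMG array 4 and without RMG array 9, with adjusted p between 0.0853 and 0.188 by limma. All but Mcoln2 and Serpinb2 also lost it when L_FMG or H_FMG was taken out of the mean (adjusted p = 0.053 and 0.121 by limma), and Pf4 and Prex2 without RMG array 10. None of the 10 changed sign in any of the alternatives run for them. For all 10 the HFD mean lay between RMG and the mean of the other 4 groups.

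**Figure D5:**
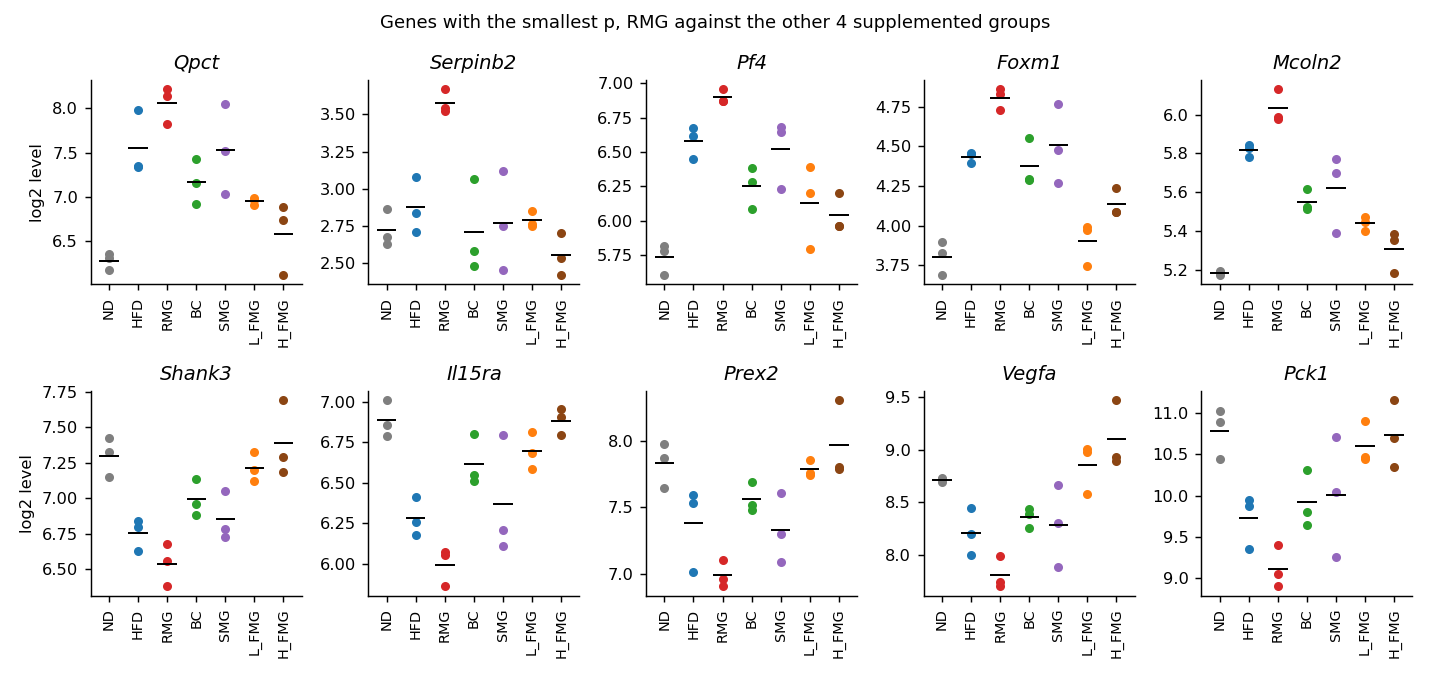
Log2 level by group for the 5 genes higher (top) and 5 lower (bottom) with the smallest p in RMG against the mean of BC, SMG, L_FMG and H_FMG, 1 point per array and a bar at each group mean. RMG has the highest mean of the 7 groups in each top panel and the lowest in each bottom panel, with HFD nearest to it in some panels and SMG in others.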

How the data were processed

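Total RNA of epididymal fat was extracted with Trizol and labelled with biotin for GeneChip whole-transcript arrays, per the labels' protocols. The authors deposited log2 values, 1 per probe and array. The base was inferred from their range of 0.84 to 12.71, with summarisation and normalization not given in the sources used here. Scan dates and batches were unknown. Of 24292 probes, 24291 had all 21 values (the last ended after 12). By platform annotation 17067 probes had 1 symbol, 1139 several and 6085 none, and only the first entered. For 668 genes with more than 1 probe the brightest by mean over 21 arrays was used, which left 16248 genes. Chromosomes 7, 8, 9 and X contributed 3, 5, 5 and 4 protein-coding genes, Y contributed 0, and chromosome 6 42% of its genes (names and chromosomes from the GRCm38.p6 gene table). Genes not measured were not analysed here, and of 1100 genes on the 50 lists 747 were measured.

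Fits used limma 3.58.1 (R 4.3.3) with a coefficient for each group over 21 arrays (14 residual degrees of freedom), an intensity trend, two-sided tests and Benjamini-Hochberg adjustment at 0.05. No further normalization was applied. Lists were described by counts and medians and not tested. Genes were named by rule: 10 per direction in RMG against HFD by smallest p among genes without overlap, 3 per list, a core panel, and 5 per direction against the other 4 supplemented groups. The text gives a selection. The members, the lists and the rule were chosen with earlier results of these data known. The fit was tested on simulated data. Alternatives were quantile normalization, median centring, dim genes left out (8124 kept), every probe, the mean of probes, the 6 arrays alone, no trend, array weights, and each array left out. The precision is limited by 3 arrays per group.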

Additional observations from a re-analysis of the deposited data

Results flagged for a closer look

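For 10 genes the level in RMG differed from the mean of the other supplemented groups (BC, SMG, L_FMG and H_FMG) by limma's contrast. The differences were 0.55 for Mcoln2, 0.87 for Serpinb2, 0.66 for Pf4, 0.58 for Foxm1 and 1.00 for Qpct. On the lower side they were -0.84 for Vegfa, -0.65 for Il15ra, -0.57 for Shank3, -0.67 for Prex2 and -1.21 for Pck1. Adjusted p was 0.0105 for Mcoln2, 0.012 for Serpinb2 and 0.024 for the others, by limma. In RMG minus SMG alone the same genes differed by 0.41, 0.81, 0.38, 0.30, 0.53, -0.47, -0.38, -0.31, -0.34 and -0.89 in that order, and none passed (adjusted p = 0.9998 by limma). The second probe of Shank3 differed by 0.37 in RMG against HFD, where the probe used differed by -0.22.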

How the results depend on the processing

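RMG against HFD called 0 genes higher and 0 lower under 13 of 14 alternatives. The exception was array weights, with 2 higher. The smallest adjusted p by limma ran from 0.0121 with array weights to 0.999 with dim genes left out, and higher still without most single arrays, and the number at an unadjusted p under 0.05 from 236 with dim genes left out to 1712 with array weights. With the 6 arrays alone the smallest was 0.255, for Col8a1. Against the mean of the other 4 supplemented groups (304 higher, 141 lower), dim genes left out gave 585 and 293, quantile normalization gave 304 lower, and leaving out single RMG arrays gave 0 to 9 higher and 0 to 17 lower. Alternatives added after seeing the data gave 759 and 333 without SMG, 2 and 0 without L_FMG and likewise without H_FMG, and 1257 and 837 with array weights. Leaving out single arrays of those groups gave 67 to 645 higher and 37 to 296 lower. Against ND the number lower (736) was 1140 with quantile normalization and 385 to 1038 without single arrays. The position along the diet axis was -0.20 with quantile normalization and -0.25 with dim genes left out. The cause of these shifts was not tested. Of 176 named genes 9 changed sign between RMG and HFD under some alternative, and 32 of 50 list medians kept theirs. No paired analysis was possible because RMG shares 1 title number with HFD (4), 1 with ND (9) and none with SMG, and a mean of groups has no pairs.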

Other observations

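Other gene groups stood close to the HFD level in RMG, with 0 genes past the threshold. Small nucleolar RNAs, which guide the modification of ribosomal RNA, had a median difference of -0.003 with 0 of 25 above and 1 below, and cytosolic ribosomal protein genes 0.06 with 2 of 30 above and 1 below. Circadian clock genes had -0.02 with 0 of 13 separated, immediate early genes 0.05 with 1 of 20 above, and glucocorticoid-responsive genes -0.01 with 0 of 12 above and 3 below (25%, against 4.65% of all genes). Genes of endoplasmic reticulum stress had 0.05, with 4 of 22 above (18.2%). Among them Sdf2l1, a chaperone partner, was at 6.71, 6.78 and 6.61 in HFD and at 7.08, 6.83 and 7.01 in RMG, a difference of 0.27 ± 0.17.

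Detoxifying enzymes leaned down, with a median of -0.12 and 16 of 22 differences negative, 3 below and 1 above. The glutathione transferase Gstm1 was at 7.37, 7.22 and 7.41 in HFD and at 6.84, 7.05 and 7.09 in RMG, without overlap, a difference of -0.34 ± 0.12. Antioxidant genes were mixed, with 3 of 15 above, 2 below and a median of -0.04. Acute-phase genes had a median of 0.01 and a wide range, from Orm2 at -0.55 ± 0.34 to Serpina1e at 0.64 ± 0.20. Serpina1e, a liver-type protease inhibitor with close copies, was at 3.48, 3.82 and 3.34 in HFD and at 4.41, 3.88 and 4.26 in RMG. Skeletal muscle, nerve and red blood cell markers had medians of -0.03, 0.03 and 0.07.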
